A study of Mus musculus with 15 samples.

Results

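Livers of mice that ate decaffeinated coffee in a high-fat diet were set against livers of mice that ate the high-fat diet without coffee, to find which transcripts differ when a coffee almost free of caffeine is added to a fattening diet. The comparison takes 6 of the 15 arrays of the study, chosen by their labels alone: the 3 arrays of the HFDC group and the 3 arrays of the HF group. All mice were male C57BL/6J, an inbred strain that becomes obese and accumulates liver fat on such a diet, and were 7 weeks old when feeding began. HFDC mice ate for 9 weeks a feed in which fat supplied 60% of the energy and freeze-dried decaffeinated coffee made up 2%, and HF mice ate the feed with no coffee. The other arrays, also 3 per group, come from mice on that diet with 2% caffeinated coffee (HFCC) or 2% caffeinated, unroasted green coffee (HFGC), and from mice on a feed in which fat supplied 10% of the energy (ND). Coffee was mixed into feed that was eaten freely, and the dose per mouse was not analysed here. One array was made from the liver of each mouse, and the values below are log2 intensities, on which 1 unit is a factor of 2.

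A liver that takes in more fatty acid than it burns or exports stores the excess as triglyceride in droplets, whose surface is coated by perilipins. Uptake goes through transporters such as CD36, the last steps of storage through acyltransferases, and the nuclear receptors PPARg and PPARa steer storage and burning. Cholesterol is made in the same cells through the mevalonate pathway, whose genes are switched on together by the factor SREBP2 when sterols in the cell are low.

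Of 18193 genes tested with limma, 913 (5.02%) were called at an adjusted p under 0.05 (Benjamini-Hochberg over all genes), 239 (1.31%) higher and 674 (3.70%) lower in HFDC than in HF livers. The median log2 difference of all genes was 0.01 with a median SE of 0.092, and the called differences spanned 0.22 to 2.94 in size. Only 9 called genes differed by 1 log2 unit or more. Called genes were brighter than the rest, with median levels of 8.08 for those higher and 8.44 for those lower, against 6.41 for all genes. The arrays of the groups did not overlap for 903 of the 913, whereas over all genes 11.0% lay wholly higher and 15.2% wholly lower in HFDC. Among genes brighter than the median level, 58.4% had a difference below 0. After cyclic loess, which evens out differences that follow the level, this share was 49.3%, and 498 genes were called, of which 56.6% were higher, against 26.2% of the calls without it.

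The number of calls turned on which livers were in the fit. It was 5 without HF replicate 2, 3 without HF replicate 3 and 3 without HFDC replicate 3. Without HFDC replicate 1 it was 196, without HFDC replicate 2 it was 76, and without HF replicate 1 it was 2111. When the HFDC and HF arrays were fitted without the other groups, 5 genes were called. HF replicate 1 was the HF liver nearest to the HFDC mean for 740 of the 913 called genes, against 70 for HF replicate 2 and 103 for HF replicate 3. Leaving out HFCC replicate 3 took the count to 567, and each of the other 8 arrays to between 676 and 1030.

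A technical measure moved with the groups. The 3′ minus 5′ signal of the control probe sets for Gapdh and Actb grows as RNA breaks or is copied less fully, and it was 1.06, 0.86 and 0.86 log2 units in HFDC replicates 1, 2 and 3, against 1.08, 1.40 and 1.17 in HF replicates 1, 2 and 3. The groups did not overlap, although HFDC replicate 1 and HF replicate 1 nearly met. The difference of −0.29 gave p = 0.1 in a two-sided exact permutation test, the smallest p that 3 against 3 arrays allow. With this measure as a covariate limma called 0 genes, and 2268 reached an unadjusted p under 0.05, against 4122 without it. The part of RNA quality in the calls cannot be told apart from that of the diet.

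**Figure D1:**
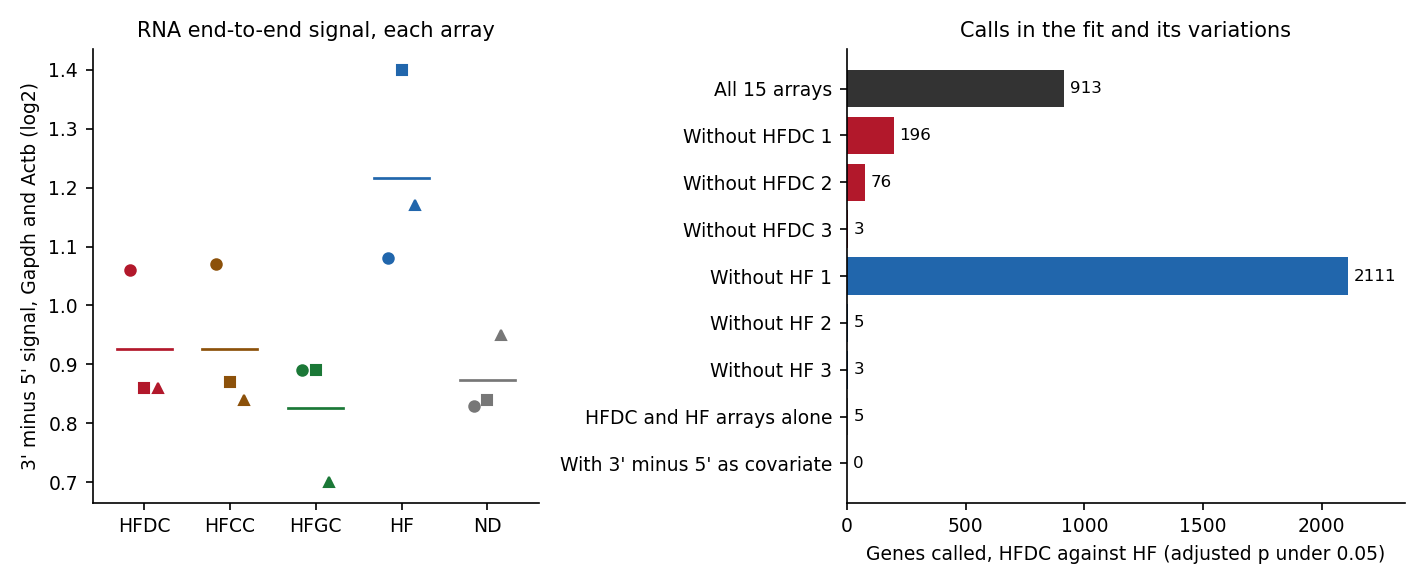
Left, the 3′ minus 5′ log2 signal of Gapdh and Actb on each of the 15 arrays (circle, square and triangle are replicates 1, 2 and 3; the line is the mean of 3), where the HF mean of 1.22 lies above the HFDC mean of 0.93. Right, the number of genes called in HFDC against HF with all 15 arrays (913) and with single HFDC or HF arrays left out, which ranged between 3 and 2111.

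The tissue was checked against its markers. Albumin (Alb), the main plasma protein made by hepatocytes, read 14.78, 14.76 and 14.77 in HFDC livers and 14.76, 14.74 and 14.73 in HF livers, and 0 of the 6 hepatocyte markers measured were called. Of the lists for macrophages (16 measured), lymphocytes (12), neutrophils (6), stellate cells and fibroblasts (14), bile duct (6), adipocytes (6), acinar pancreas (7) and red cells (4), limma called 0 genes. Of these, 1 lymphocyte, 1 stellate, 1 pancreas and 1 red cell marker were at an unadjusted p under 0.05, as were 4122 of all 18193 genes. The endothelial list had 2 calls of 10, both lower: Stab1 and Stab2, scavenger receptors of the liver sinusoids. Its median was 0.07 and 6 of the 10 lay above 0, while 3.70% of all genes were called lower. Lyve1 and Clec4g, also on the list, differed by 0.22 and 0.21 without passing. The mean level of the red cell list was 6.93 in HFDC replicate 1, against 6.15 and 6.21 in HFDC replicates 2 and 3 and 6.23 to 6.58 in HF livers. In whole liver, fewer cells of a type and less RNA per cell cannot be told apart.

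**Figure D2:**
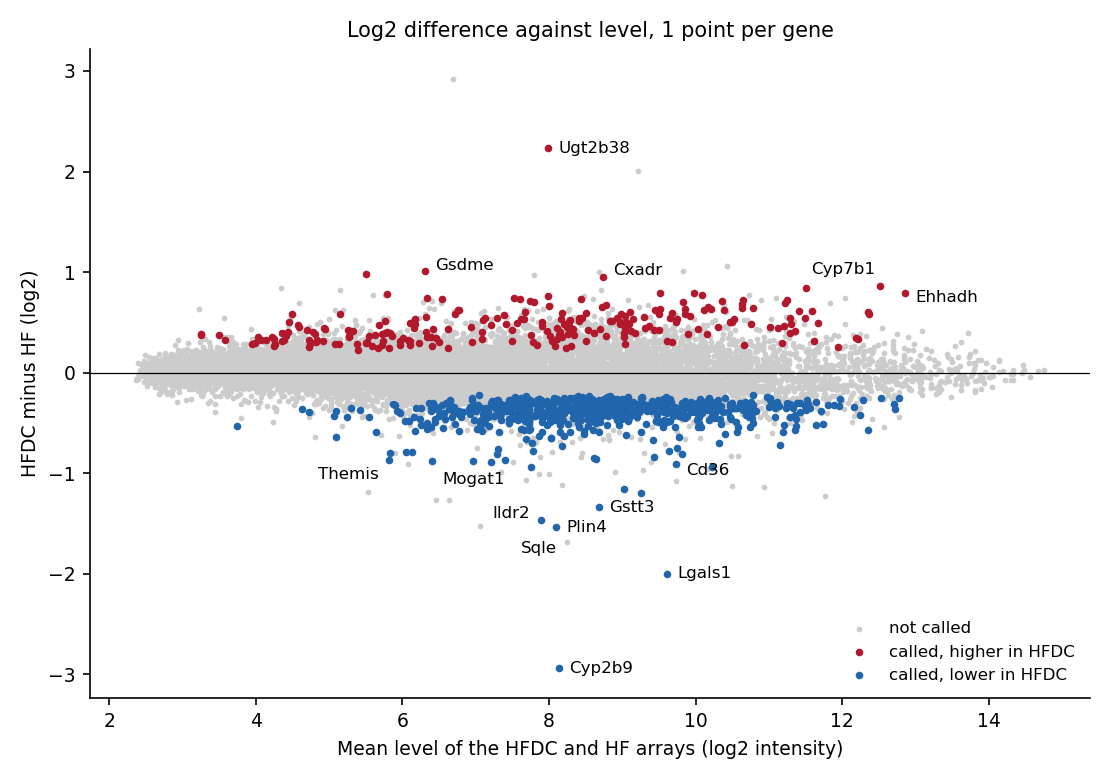
The log2 difference HFDC minus HF of each of 18193 genes (vertical) against the mean level of the 6 arrays (horizontal, log2 intensity), with the 239 genes called higher in red and the 674 called lower in blue. Most called genes lie within 1 log2 unit of 0, and among them Cyp2b9 (−2.94) and Ugt2b38 (2.23) lie farthest out below and above 0.

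Only 3 genes kept their call with all 15 arrays and in each of the 15 fits that left out 1 array: Plin4, Ildr2 and Themis, all lower in HFDC livers. Plin4 encodes perilipin 4, a coat protein of lipid droplets. Its level was 7.31, 7.38 and 7.31 in HFDC livers, against 8.56, 9.07 and 8.96 in HF livers. Every HFDC liver lay more than 1 unit below the lowest HF liver, and the HFDC livers were close to the ND mean of 7.03. Plin4 fell by 1.53 (SE 0.17, adjusted p = 0.0032, limma) and its adjusted p did not exceed 0.042 in any fit that left out an array. The mean was 7.33 ± 0.04 in HFDC and 8.87 ± 0.27 in HF livers (SD, n = 3 each).

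Ildr2, an endoplasmic reticulum membrane protein linked in mouse liver to lipid handling, read 7.02, 7.13 and 7.32 in HFDC livers and 8.23, 8.69 and 8.93 in HF livers. The groups were again far apart, and the change of −1.46 (SE 0.18, adjusted p = 0.0043) appeared on all 3 of its probe sets, with −1.23 and −0.73 on the other two. Themis, a signalling protein known from developing T cells, was dim, with 5.16, 5.49 and 5.49 in HFDC livers against 6.05, 6.36 and 6.34 in HF livers. It fell by 0.87 (SE 0.10, adjusted p = 0.0043). Only the brightest of its 4 probe sets moved, the others differing by 0.21, −0.03 and 0.07, and the lymphocyte marker list had a median difference of 0.03. For Plin4, Ildr2 and Themis the difference was −1.47, −1.21 and −0.83 with the 3′ minus 5′ covariate, at unadjusted p = 2.33e-05, 0.000141 and 5.8e-05 in limma. The adjusted p with the covariate was 0.31 for each. With the HFDC and HF arrays fitted alone, Plin4 and Ildr2 were called and Themis was not (adjusted p = 0.014, 0.042 and 0.079, limma).

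All other named genes that passed the test, 67 of 70, lost the call when HF replicate 2, HF replicate 3 or HFDC replicate 3 was left out, and their highest adjusted p over the 15 such fits ranged between 0.096 and 0.2. Of the 67, 49 also lost the call without HFDC replicate 1, 56 without HFDC replicate 2 and 1 without HF replicate 1. A lost call does not show that a difference came from the liver left out. The changes of the 67 genes are given below with the full fit. With the 3′ minus 5′ covariate the difference was over 1.5 times smaller for 16 of the 70, which were 10 of the 17 higher and 6 of the 53 lower genes. With it the values included −0.28 for Slc27a4, 0.18 for Arnt, 0.17 for Abca1 and −0.21 for Stab2.

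Of 15 lipid droplet proteins measured, 1 was called higher and 2 lower, against 1.31% and 3.70% of all genes. The median difference was −0.20 against 0.01 over all genes. Without HF replicate 2, HF replicate 3 or HFDC replicate 3 the only call in this list was Plin4. Bscl2 encodes seipin, which shapes budding droplets, and read 10.33, 10.47 and 10.31 in HFDC livers, against 10.58, 10.78 and 10.80 in HF livers. The groups did not overlap, though HFDC replicate 2 came close to HF replicate 1, and Bscl2 fell by 0.35 (SE 0.07, adjusted p = 0.026). Rab18, a small GTPase found on droplets, rose by 0.56 (SE 0.14, adjusted p = 0.036), at 10.10, 10.19 and 10.32 in HFDC against 9.98, 9.32 and 9.62 in HF livers. Its difference was 0.18 with the 3′ minus 5′ covariate. Cidea, which fuses droplets, read 4.47, 4.55 and 4.48 in HFDC livers and 4.65, 4.43 and 5.73 in HF livers, where only HF replicate 3 was high, and did not pass (adjusted p = 0.26). Fitm1, needed for droplet formation, differed by −0.65 (SE 0.20, adjusted p = 0.074).

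Fatty acid uptake gave 3 calls of 17, all lower, against 3.70% of all genes, with a median difference of −0.05. Without HF replicate 2, HF replicate 3 or HFDC replicate 3, 0 of the 17 were called. Cd36, the fatty acid transporter, had 9.27, 9.30 and 9.26 in HFDC livers and 9.99, 10.23 and 10.34 in HF livers. The HFDC livers were nearly identical and all lay below the HF livers, and Cd36 fell by 0.91 (SE 0.21, adjusted p = 0.031). Its other probe sets differed by −0.62 and −1.13. Mogat1, which joins a fatty acid to monoacylglycerol and is raised by PPARg in fatty mouse liver, had 6.03, 6.17 and 5.70 in HFDC against 6.67, 6.75 and 7.10 in HF livers. It fell by 0.87 (SE 0.16, adjusted p = 0.022), to about the ND mean of 5.99. Slc27a4, a fatty acid transport protein, fell by 0.43 (SE 0.09, adjusted p = 0.026). Fabp4, a fatty acid carrier of fat cells, differed by −0.63 with an SE of 0.36 (adjusted p = 0.32), with HFDC replicate 1 just below the lowest HF liver.

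Of 21 genes of triglyceride synthesis and breakdown, 1 rose and 3 fell, against 1.31% and 3.70% of all genes. The median difference was −0.23 and 18 lay below 0, as did 58.4% of all genes brighter than the median level. No call of this list remained without HF replicate 2, HF replicate 3 or HFDC replicate 3. Dgat1 and Dgat2, the acyltransferases that complete triglyceride, fell by 0.42 (SE 0.10, adjusted p = 0.034) and 0.34 (SE 0.08, adjusted p = 0.03). Dgat2 read 11.77, 11.90 and 11.71 in HFDC livers, against 12.03, 12.15 and 12.20 in HF livers, so that the groups did not overlap. Ces1g, a carboxylesterase, had 9.20, 9.65 and 9.24 in HFDC and 9.90, 10.30 and 10.14 in HF livers. It fell by 0.75 (SE 0.16, adjusted p = 0.027) but stayed above the ND mean of 7.97.

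Pnpla7, a lysophospholipase of the patatin family, ran the other way. It read 11.23, 11.02 and 11.06 in HFDC livers, against 10.65, 10.34 and 10.38 in HF livers, and rose by 0.64 (SE 0.10, adjusted p = 0.016). The lowest HFDC liver exceeded the highest HF liver, and the ND mean was 11.20. Pnpla7 was also higher in HFDC than in both caffeinated coffee groups, as described further on.

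**Figure D3:**
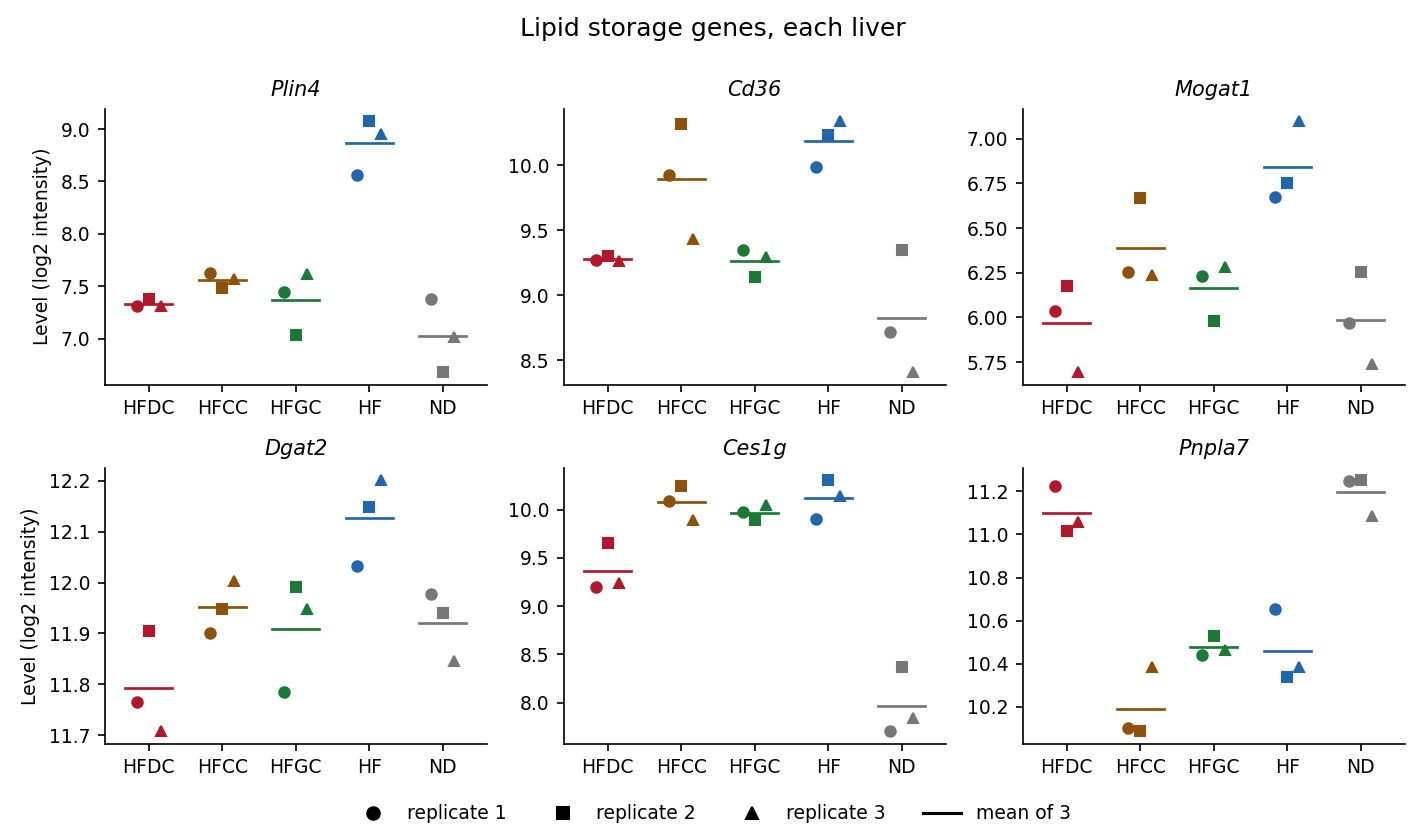
Level (log2 intensity) of 6 genes of lipid storage in each liver of the 5 groups, with circle, square and triangle for replicates 1, 2 and 3 and a line for the mean of 3; the vertical axes do not start at 0 and differ between genes. In Plin4, Cd36, Mogat1, Dgat2 and Ces1g all HFDC livers lie below all HF livers, and in Pnpla7 all lie above.

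Fatty acid synthesis had 1 lower call of 18, against 3.70% of all genes, and 13 of its genes lay below 0 (median −0.24). Acss2, which makes acetyl-CoA from acetate in the cytosol, fell by 0.81 (SE 0.16, adjusted p = 0.025), at 9.60, 9.51 and 9.12 in HFDC livers and 10.01, 10.38 and 10.27 in HF livers. Without HFDC replicate 1, 2 genes of this list were called, and 0 were called without HF replicate 2, HF replicate 3 or HFDC replicate 3. Thrsp, a regulator of lipogenesis, had 10.07, 10.73 and 10.30 in HFDC and 11.24, 11.24 and 12.04 in HF livers, a difference of −1.14 that missed the threshold (SE 0.37, adjusted p = 0.081). Fasn, the fatty acid synthase, differed by −0.71 (SE 0.36, adjusted p = 0.26).

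The burning of fatty acid showed few calls. Ehhadh, the bifunctional enzyme of peroxisomal oxidation, rose by 0.79 (SE 0.20, adjusted p = 0.04), with 13.51, 13.05 and 13.21 in HFDC livers against 12.87, 12.27 and 12.25 in HF livers. Ppara, the nuclear receptor that raises Ehhadh and its kind, was lower by 0.54 (SE 0.13, adjusted p = 0.037), and these were the only calls among 25 genes of that list, whose median was −0.01. Under cyclic loess Ppara was not called, and with the 3′ minus 5′ covariate it differed by −0.21. In the mitochondrial list of 19, Etfa, which passes on electrons from fatty acid oxidation, rose by 0.35 (SE 0.09, adjusted p = 0.046). Cpt1a, the gate for fatty acids into mitochondria, differed by 0.38 (SE 0.14, adjusted p = 0.12), and Hadhb, of the trifunctional protein, by 0.38 (SE 0.11, adjusted p = 0.065). With the covariate, Etfa differed by 0.10, and 0 of the 19 genes reached an unadjusted p under 0.05, against 8 without it. Of all 18193 genes, 2268 reached such a p with the covariate and 4122 without it.

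**Figure D4:**
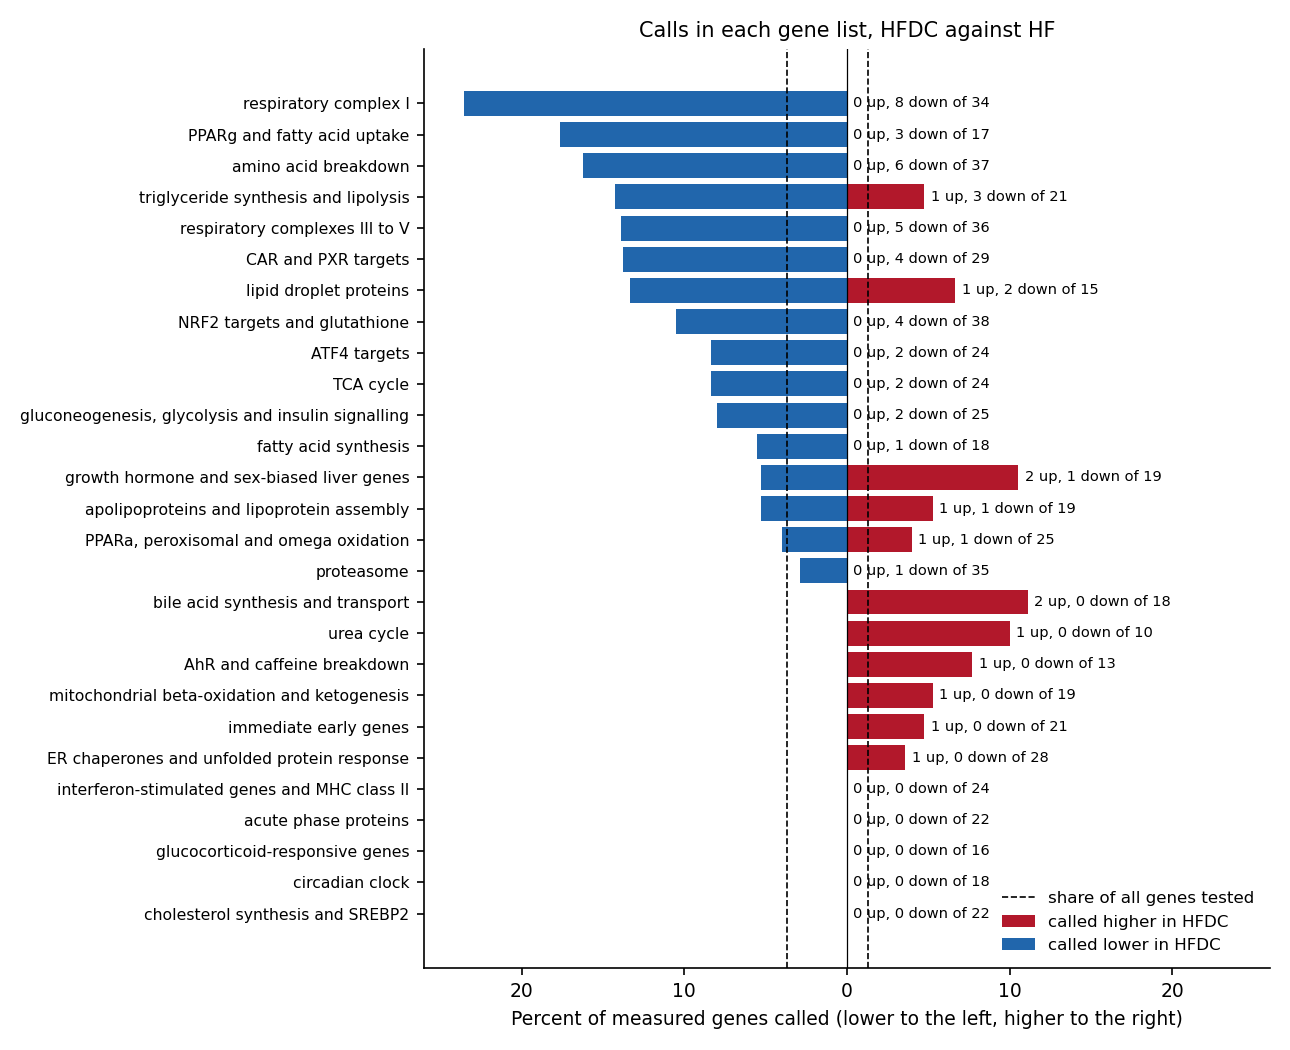
Percent of the measured genes of each of 27 lists that were called in HFDC against HF, higher to the right and lower to the left, with the counts beside each bar. The dashed lines mark the shares over all genes, 1.31% higher and 3.70% lower; lists are ordered by the share called lower.

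The genes of cholesterol synthesis split the HFDC livers. Limma called 0 of 22, with 15 at an unadjusted p under 0.05, against 4122 of all 18193 genes. The median difference was −0.68, against 0.01 over all genes. The mean level of the list was 9.79 in HFDC replicate 1, 8.79 in HFDC replicate 2 and 8.69 in HFDC replicate 3, against 9.78, 9.75 and 9.58 in HF livers. HFDC replicate 1 thus stood at the HF level and the other 2 HFDC livers about 1 unit below it, near the ND livers with 8.42, 8.39 and 8.37. Without HFDC replicate 1, 10 of the 22 were called, all lower, with a median of −0.97. HFDC replicate 1 was also the HFDC liver with the highest 3′ minus 5′ value and the highest red cell level, and the part of either in the split was not tested.

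Sqle, the squalene epoxidase and a slow step of the pathway, read 9.54, 6.82 and 5.86 in HFDC livers, against 9.42, 9.10 and 8.75 in HF livers. Hmgcs1, which makes HMG-CoA, had 12.26, 11.11 and 10.07 in HFDC and 12.39, 12.52 and 12.22 in HF livers. In both genes HFDC replicate 1 overlapped with the HF livers while the others lay well below. The differences were −1.68 for Sqle (SE 0.64, adjusted p = 0.13) and −1.23 for Hmgcs1 (SE 0.40, adjusted p = 0.085). Fdft1, the squalene synthase, had 10.06, 8.77 and 8.74 in HFDC and 10.15, 10.42 and 10.25 in HF livers, without overlap, and differed by −1.08 (SE 0.33, adjusted p = 0.069). Stard4, a sterol carrier, and Srebf2, the gene of SREBP2 itself, differed by 0.07 and −0.09 (adjusted p = 0.83 and 0.72).

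The promoters of 4 of these genes are shown because their levels ran in parallel over the HFDC livers, highest in replicate 1, although none of the 4 was called. Each stretch is the 250 bases before the start of the gene in RefSeq (GRCm38.p6), written 5′ to 3′ along the gene, with capitals marking the CCAAT box, the site of the factor NF-Y (read as CCAAT or, on the other strand, ATTGG), and the sterol response element core TCACNCCAC. Hmgcs1 is at chr13:119690101-119690350 on the plus strand, Mvd, the mevalonate diphosphate decarboxylase, at chr8:122443423-122443672 on the minus strand, Nsdhl, a sterol dehydrogenase, at chrX:72918271-72918520 on the plus strand, and Idi1, the isopentenyl diphosphate isomerase, at chr13:8885356-8885605 on the plus strand.
Hmgcs1: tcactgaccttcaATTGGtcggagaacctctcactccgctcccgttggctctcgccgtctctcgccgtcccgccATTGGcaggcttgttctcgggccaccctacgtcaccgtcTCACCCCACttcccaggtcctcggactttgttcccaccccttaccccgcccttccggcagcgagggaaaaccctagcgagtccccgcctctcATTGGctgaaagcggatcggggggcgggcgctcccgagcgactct
Mvd: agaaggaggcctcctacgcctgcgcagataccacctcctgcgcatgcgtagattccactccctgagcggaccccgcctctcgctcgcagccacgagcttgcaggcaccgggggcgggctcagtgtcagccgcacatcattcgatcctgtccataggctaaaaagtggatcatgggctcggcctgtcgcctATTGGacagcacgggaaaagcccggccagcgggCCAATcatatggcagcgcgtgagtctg
Nsdhl: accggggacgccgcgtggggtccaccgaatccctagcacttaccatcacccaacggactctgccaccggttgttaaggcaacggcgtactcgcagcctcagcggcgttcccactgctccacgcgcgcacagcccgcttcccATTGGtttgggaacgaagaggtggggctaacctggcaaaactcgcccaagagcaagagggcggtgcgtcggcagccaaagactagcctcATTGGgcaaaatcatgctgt
Idi1: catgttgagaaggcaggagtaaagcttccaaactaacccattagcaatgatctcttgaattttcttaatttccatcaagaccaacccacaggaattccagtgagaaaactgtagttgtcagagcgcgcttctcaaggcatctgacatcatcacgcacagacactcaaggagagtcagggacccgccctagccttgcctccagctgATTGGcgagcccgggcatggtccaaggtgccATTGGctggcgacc
Counted back from the start of the gene, the CCAAT boxes begin at −237, −176 and −45 in Hmgcs1, −60 and −27 in Mvd, −109 and −20 in Nsdhl, and −45 and −14 in Idi1, and the sterol response element core of Hmgcs1 begins at −137. Over windows that also hold the first 50 bases of the gene, 17 of the 18 genes of the list with a window had a CCAAT box on either strand, against 41.1% of the 27025 genes of the same table (37.4% of its 32851 windows). The sterol response element core was found in 1 of the 18, Hmgcs1, and in 1.44% of all genes (1.24% of windows). These motifs were singled out of 13 after their counts were seen, and a match of letters does not show a bound site.

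**Figure D5:**
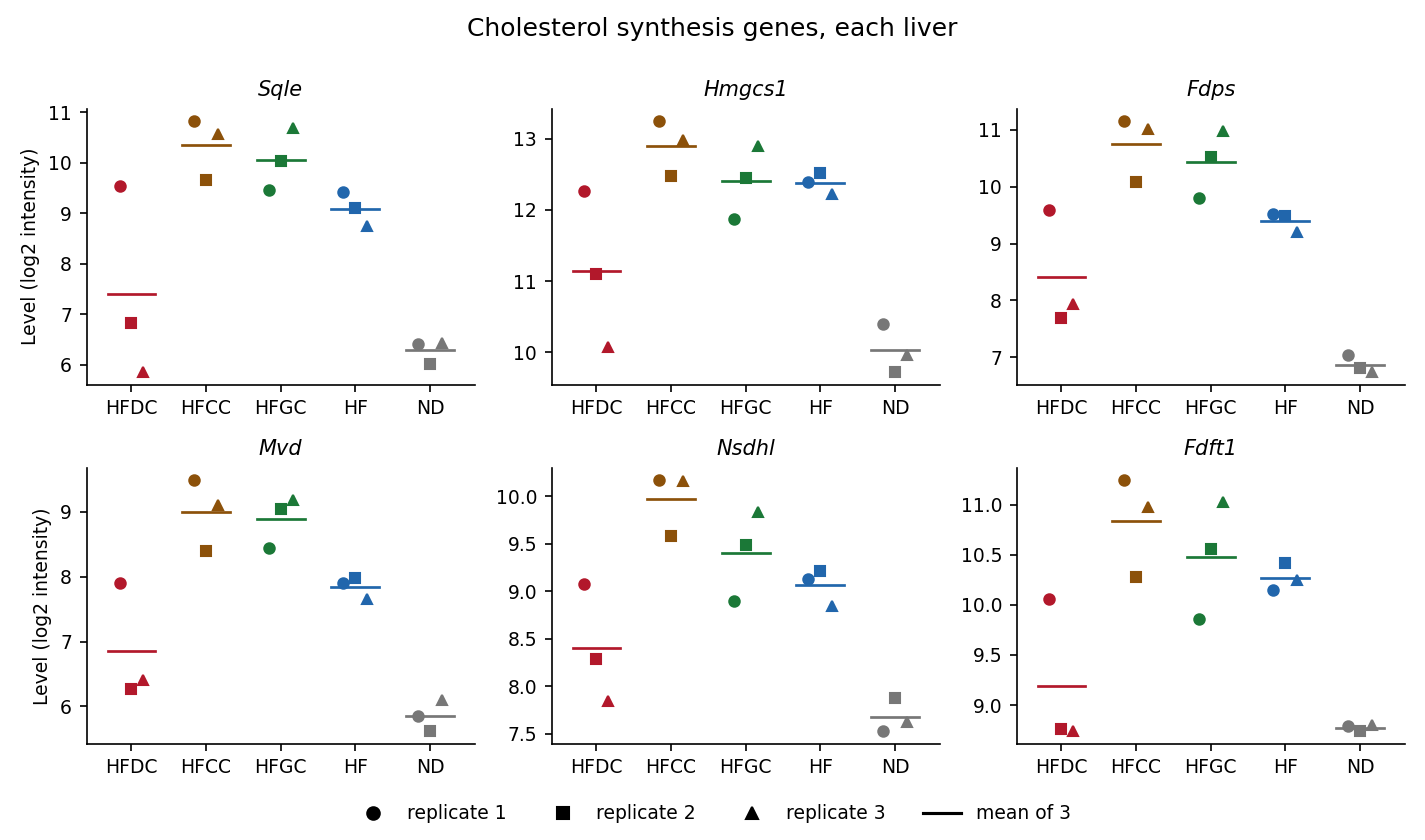
Level (log2 intensity) of 6 genes of cholesterol synthesis in each liver of the 5 groups; circle, square and triangle are replicates 1, 2 and 3, the line is the mean of 3, and the vertical axes do not start at 0. The HFDC circle lies with or near the HF livers in each gene, and the HFDC square and triangle lie below all HF livers.

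Bile acid and lipoprotein genes gave single calls. Cyp7b1, an oxysterol hydroxylase on the route to bile acids and more abundant in male mouse liver, rose by 0.86 (SE 0.17, adjusted p = 0.025), with 12.97, 12.81 and 13.03 in HFDC livers against 12.35, 11.69 and 12.20 in HF livers. Slco1a1, an uptake carrier for organic anions that is also male-biased, rose by 0.85 (SE 0.22, adjusted p = 0.043). They were the only calls among 18 bile acid genes, whose median was −0.06, while 1.31% of all genes were called higher. Cyp7a1, the rate-limiting enzyme of bile acid synthesis, ranged from 10.17 to 12.03 in HFDC and from 10.57 to 11.73 in HF livers and did not pass (adjusted p = 0.63). Of 19 apolipoprotein and lipoprotein assembly genes, 1 was called higher and 1 lower, against 1.31% and 3.70% of all genes. Abca1, the cholesterol exporter, rose by 0.41 (SE 0.11, adjusted p = 0.042), and Pltp, the phospholipid transfer protein, fell by 0.67 (SE 0.16, adjusted p = 0.034).

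Cyp2b9, a cytochrome P450 that is low in lean male livers, read 6.64, 8.04 and 5.31 in HFDC livers and 8.84, 10.16 and 9.80 in HF livers. The HFDC livers differed widely among themselves and still lay below all HF livers, and Cyp2b9 fell by 2.94 with an SE of 0.81 (adjusted p = 0.049). Cyp2c38, a P450 of the Cyp2c family, fell by 1.16 (SE 0.21, adjusted p = 0.022). Nr1i3, the nuclear receptor CAR that drives Cyp2b genes, had 10.13, 10.17 and 9.58 in HFDC against 10.54, 10.78 and 10.67 in HF livers and fell by 0.70 (SE 0.13, adjusted p = 0.022). With Abcb1a, a drug efflux pump (−0.44), these made 4 lower calls among 29 CAR and PXR targets, against 3.70% of all genes. The median of the list was −0.01. Without HFDC replicate 1 and without HFDC replicate 2 the list had 2 calls and 1 call, and without HF replicate 2, HF replicate 3 or HFDC replicate 3 it had 0.

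Ugt2b38, a UDP-glucuronosyltransferase, was the called gene that rose most. It read 8.74, 9.15 and 9.40 in HFDC livers, against 7.64, 6.27 and 6.69 in HF livers, and the groups lay more than 1 unit apart. The rise was 2.23 (SE 0.40, adjusted p = 0.022), and 1.45 with the 3′ minus 5′ covariate.

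Of 38 NRF2 target and glutathione genes 4 were lower and 0 higher, against 3.70% and 1.31% of all genes, with a median of −0.10. Gstt3, a glutathione S-transferase of the theta class, had 7.83, 8.39 and 7.82 in HFDC and 9.19, 9.29 and 9.57 in HF livers and fell by 1.33 (SE 0.32, adjusted p = 0.034). Gstt1, of the same class, fell by 0.57 and the membrane-bound Mgst3 by 0.86 (adjusted p = 0.03 and 0.022). Hmox1, heme oxygenase 1, a classic target of NRF2, differed by 0.17 (adjusted p = 0.54). Of 13 genes of the AhR pathway and caffeine breakdown, 1 was called, higher, against 1.31% of all genes. This was Arnt, the partner of AhR, which rose by 0.27 (SE 0.06, adjusted p = 0.029). It had 7.98, 7.97 and 7.97 in HFDC and 7.77, 7.61 and 7.72 in HF livers. The next brightest probe set of Arnt, at nearly the same level, differed by −0.05, and the dimmer ones by 0.21, 0.38 and 0.30.

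Of 34 complex I genes, which pass electrons from NADH to ubiquinone, 8 were called, all lower, against 3.70% of all genes. The median was −0.16 and 28 lay below 0, as did 58.4% of all genes brighter than the median level. Ndufa5 read 10.90, 10.93 and 10.87 in HFDC livers and 11.14, 11.33 and 11.28 in HF livers, and fell by 0.35 (SE 0.07, adjusted p = 0.026). Ndufv3 had 11.97, 12.04 and 11.96 in HFDC against 12.20, 12.42 and 12.37 in HF livers, a fall of 0.34 (SE 0.07, adjusted p = 0.024). In both, HF replicate 1 was the lowest HF liver and the groups stayed apart. Ndufb7, Ndufb10, Ndufv1 and Ndufa10 fell by 0.29 to 0.31, whereas Ndufs1, a core subunit, differed by 0.19 and Ndufab1 by 0.17 without passing.

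The calls in complex I moved with the processing. Cyclic loess left 1 call with a median of −0.12, and leaving out any 1 HFDC liver, HF replicate 2 or HF replicate 3 left 0. Without HF replicate 1 there were 15 calls, and 0 were called with the covariate, under which the median was −0.17. Complexes III to V, which finish the chain and make ATP, had 5 lower calls of 36, against 3.70% of all genes, with a median of −0.10. Uqcrc1, a core protein of complex III, fell by 0.38 (SE 0.08, adjusted p = 0.026). Cox4i1, a subunit of complex IV, fell by 0.25 (SE 0.07, adjusted p = 0.042), and Atp5e, of ATP synthase, by 0.32 (SE 0.08, adjusted p = 0.035). Under cyclic loess 1 of the 36 was called.

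Carbon and nitrogen metabolism followed the same sign in part. Of 24 genes of the tricarboxylic acid cycle, 2 were called, both lower, against 3.70% of all genes. Ogdh, of the oxoglutarate dehydrogenase complex, fell by 0.57 (SE 0.10, adjusted p = 0.022) and Sdhc, an anchor of succinate dehydrogenase, by 0.30 (SE 0.07, adjusted p = 0.031). Ogdh had 8.31, 8.22 and 8.38 in HFDC livers against 8.62, 9.07 and 8.95 in HF livers. Its second probe set differed by 0.00, and the dimmer probe set of Sdhc, ending in _x_at, by 0.09. Dld, a further subunit of the oxoglutarate dehydrogenase complex, differed by 0.41 (SE 0.12, adjusted p = 0.066). Idh3a, of isocitrate dehydrogenase, had 9.90, 9.69 and 9.66 in HFDC and 9.88, 8.98 and 9.31 in HF livers, with HF replicate 1 among the HFDC values (difference 0.36, SE 0.19, adjusted p = 0.28). Its other, dimmer probe sets differed by −0.17, −0.25 and 0.06, so that they did not share a sign.

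Amino acid breakdown had 6 lower calls of 37, against 3.70% of all genes. Its median was −0.13 and 29 genes lay below 0, as did 58.4% of all genes brighter than the median level. Prodh, which starts proline breakdown, read 9.54, 10.04 and 9.68 in HFDC and 10.47, 10.68 and 10.94 in HF livers and fell by 0.94 (SE 0.19, adjusted p = 0.024). Gpt, alanine aminotransferase, fell by 0.59, Bckdha, for branched-chain keto acids, by 0.49, Uroc1, of histidine breakdown, by 0.44 and Sardh, which oxidises sarcosine, by 0.42. Got1, an aspartate aminotransferase, differed by 0.48 (SE 0.32, adjusted p = 0.42). Under cyclic loess 2 genes of the list were called, and without HF replicate 2, HF replicate 3 or HFDC replicate 3 none was.

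The urea cycle turns ammonia into urea, and 1 of its 10 genes was called, higher, against 1.31% of all genes. Slc25a13, the aspartate and glutamate carrier citrin, had 11.57, 11.61 and 11.51 in HFDC livers and 11.38, 10.62 and 11.07 in HF livers, where HF replicate 2 was lowest. It rose by 0.54 (SE 0.15, adjusted p = 0.049), kept its call in only 1 of the 15 fits that left out an array, and differed by 0.14 with the covariate. Arg1, liver arginase, had 12.89, 13.11 and 13.25 in HFDC and 13.09, 12.85 and 12.96 in HF livers. Asl, which splits argininosuccinate, had 11.52, 11.67 and 11.89 in HFDC and 11.94, 11.81 and 12.09 in HF livers. The groups overlapped in both, and the differences were 0.12 for Arg1 (SE 0.12, adjusted p = 0.63) and −0.25 for Asl (SE 0.21, adjusted p = 0.52). Ass1 differed by −0.56 (SE 0.31) and the dim Arg2 by 0.20 (SE 0.09), with adjusted p = 0.3 and 0.18. The single probe set of Ass1 had a mean level of 6.54, against 13.24 for Arg1 and 12.07 for Asl. Whether it reads the main liver transcript was not tested.

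The study identified proteins that differed between HFDC and HF livers on gels, and 9 of their 13 genes were measured here. Of these, 2 were called lower, against 3.70% of all genes: Ndufa10, a complex I subunit (−0.29, SE 0.07, adjusted p = 0.033), and Eif5b, a translation initiation factor (−0.27, SE 0.07, adjusted p = 0.035). Agxt2, an aminotransferase, Khk, ketohexokinase, and Ndufs3, of complex I, differed by −0.37, −0.36 and −0.16 without passing. Oat, ornithine aminotransferase, and Aspdh, aspartate dehydrogenase, differed by 0.29 and −0.09 (adjusted p = 0.35 and 0.48). On the gels the protein of Eif5b was lower in HFDC livers, and those of the other measured genes were higher. The transcripts of Ndufa10, Agxt2, Khk, Ndufs3 and Aspdh thus had the opposite sign, and those of Eif5b, Oat, Hmox1 and Idh3a the same sign. Only Ndufa10 and Eif5b were called, so the signs of the others are uncertain, and the probe sets of Idh3a did not share a sign. These genes were chosen by the study from livers of the same feeding trial.

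Of 28 chaperones and unfolded protein response genes, 26 lay above 0 with a median of 0.20, against 0.01 over all genes. Only Pdia3, a disulfide isomerase, was called (0.61, SE 0.16, adjusted p = 0.045), while 1.31% of all genes were called higher. Pdia3 read 11.42, 11.71 and 12.03 in HFDC livers and 11.42, 10.88 and 11.01 in HF livers, so that HFDC replicate 1 and HF replicate 1 had nearly the same level. Limma called 0 of 18 circadian clock genes, 0 of 16 glucocorticoid-responsive genes, 0 of 22 acute phase proteins and 0 of 24 interferon and MHC class II genes. Of these, 3, 5, 4 and 5 were at an unadjusted p under 0.05, as were 4122 of all 18193 genes. Hamp, the iron hormone hepcidin, ranged from 5.36 to 10.92 in HFDC livers and from 4.67 to 6.04 in HF livers, and its difference of 2.92 had an SE of 1.49 (adjusted p = 0.26).

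Among the 20 called genes with the largest differences, several stood outside the lists. Lgals1, galectin-1, a sugar-binding lectin, had 8.67, 8.88 and 8.26 in HFDC livers against 9.99, 10.95 and 10.87 in HF livers and fell by 2.00 (SE 0.32, adjusted p = 0.016). Both of its probe sets gave about the same difference, and all HFDC livers were more than 1 unit below all HF livers. Tpm2, a tropomyosin of muscle and the cytoskeleton, fell by 1.20, Pnldc1, a ribonuclease, by 0.94, Olig1, a transcription factor, by 0.89 and Aatk, a kinase, by 0.86. Atp6v0d2, a subunit of the vacuolar proton pump, had 6.12, 6.38 and 7.10 in HFDC and 7.43, 7.47 and 7.32 in HF livers. Gsdme, a gasdermin that forms membrane pores, rose by 1.01 (SE 0.21, adjusted p = 0.026), Cep170, a centrosomal protein, by 0.98 and Cxadr, a cell junction receptor, by 0.95. Cxadr had 9.12, 9.18 and 9.32 in HFDC and 8.86, 7.85 and 8.06 in HF livers, and again HF replicate 1 lay nearest to the HFDC livers. With the covariate the differences were 0.55 for Gsdme, 0.58 for Cep170 and 0.43 for Cxadr.

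Setting HFDC livers against the other coffees asks which genes differ between the coffee groups. Such a difference can come from either group lying away from HF livers. HFDC differed from HFCC in 17 genes (0.0934%), 6 higher and 11 lower, and from HFGC in 7 (0.0385%), 4 higher and 3 lower, in the same fit. Without HFDC replicate 1 these counts were 40 and 22. Leaving out each array in turn gave 2 to 40 and 0 to 22 calls. The powders differ in caffeine and in other constituents, and which of them a difference belongs to cannot be told apart.

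Pnpla7 was higher in HFDC than in both. Its level of 11.23, 11.02 and 11.06 in HFDC livers compared with 10.10, 10.09 and 10.38 in HFCC and 10.44, 10.53 and 10.46 in HFGC livers. The difference from HFCC was 0.91 (SE 0.10, adjusted p = 0.0031) and kept its call whichever array was left out (highest adjusted p = 0.04), and that from HFGC was 0.62 (SE 0.10, adjusted p = 0.041), called in 3 of the 15 fits with an array left out. Kctd7, a dim potassium channel domain protein, was lower in HFDC, with 4.93, 4.92 and 5.03 against 5.74, 5.65 and 6.01 in HFCC and 5.62, 5.80 and 5.52 in HFGC livers. It differed by −0.84 from HFCC (SE 0.11, adjusted p = 0.0099, at most 0.048 with any array left out) and by −0.69 from HFGC (SE 0.11, adjusted p = 0.038, at most 0.19). The HFDC livers did not overlap with either caffeinated group, while HF livers with 5.08, 4.85 and 4.96 overlapped with them. A brighter probe set of Kctd7, ending in _x_at and so not used, had a mean level of 7.99 over all arrays. It read 7.94 in HFDC and 8.01 in HF livers on average, and its difference between coffees is not given here.

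Of the cholesterol list, Fdps, Mvd and Nsdhl were lower in HFDC than in HFCC livers, with differences of −2.34 (SE 0.40), −2.13 (SE 0.35) and −1.57 (SE 0.27), each at an adjusted p of 0.042. From HF livers, HFDC differed in them by −0.99, −0.98 and −0.66 without passing (adjusted p = 0.16, 0.11 and 0.16, limma). Fdps, the farnesyl diphosphate synthase, had 9.58, 7.69 and 7.95 in HFDC and 11.15, 10.07 and 11.02 in HFCC livers, so that here HFDC replicate 1 too lay below the other group. The median difference of the 22 genes was −1.21 from HFCC and −0.92 from HFGC, against 0.02 and 0.00 over all genes. Against HFGC 0 were called, with 18 at an unadjusted p under 0.05, against 1226 of all 18193 genes. Each of the 3 calls was lost without HF replicate 2, HF replicate 3, HFCC replicate 1, HFCC replicate 3, HFDC replicate 2 or HFDC replicate 3, among others, at adjusted p of up to 0.25.

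Of genes that respond to glucocorticoids, Tsc22d3, the leucine zipper protein GILZ, had 9.96, 9.59 and 9.62 in HFDC against 10.47, 10.68 and 11.11 in HFGC livers. Per1, a clock gene, had 7.29, 6.96 and 7.32 in HFDC and 8.17, 8.23 and 7.86 in HFGC livers. The groups were apart in both, with differences of −1.03 for Tsc22d3 (SE 0.16) and −0.90 for Per1 (SE 0.13), each at adjusted p = 0.038. Their differences from HF were −0.49 and −0.41 and did not pass (adjusted p = 0.086 and 0.079). Dyrk2, a kinase, was higher in HFDC than in HFGC livers by 0.63 and than in HFCC livers by 0.54, with 9.46, 9.56 and 9.47 in HFDC, 8.84, 9.01 and 9.02 in HFCC and 8.70, 9.03 and 8.87 in HFGC livers. From HF livers, HFDC differed in Dyrk2 by only 0.09 on the probe set used (adjusted p = 0.65, limma). The next brightest probe set of Dyrk2 differed by 0.39 (SE 0.11), and the dimmer ones by −0.01 and −0.15.

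Plin4, Cd36 and Mogat1 were not called between coffees, which does not show equal levels. From HFGC, Plin4 differed by −0.03 (95% interval −0.39 to 0.32), Cd36 by 0.02 (−0.43 to 0.47) and Mogat1 by −0.20 (−0.54 to 0.15). From HFCC, Plin4 differed by −0.23 (−0.59 to 0.13), Cd36 by −0.61 (−1.06 to −0.16) and Mogat1 by −0.42 (−0.77 to −0.07), with adjusted p = 0.79, 0.44 and 0.52 in limma. Ildr2 was lower in HFDC than in HFCC livers, with a difference of −1.11 (SE 0.18, adjusted p = 0.042) and levels of 7.02, 7.13 and 7.32 in HFDC against 8.35, 8.46 and 7.96 in HFCC livers. Its call was lost without any 1 HFDC liver, HF replicate 2 or HF replicate 3, among others, at adjusted p of up to 0.24.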

How the data were processed

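Liver RNA of 15 mice, 3 per group, was hybridised to Affymetrix whole-genome mouse arrays. Linear intensities were deposited, which the authors computed by RMA (background correction, normalization between arrays and 1 value per probe set; version not given in the sources used here), with array medians of 48.5 to 50.0. Log2 was taken here. Arrays were grouped by their titles, and 0 columns were unmapped. The labels name replicates within a group; the study's methods describe separate mice.

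Of 45101 probe sets, 64 were controls, 34945 had 1 gene symbol, 932 several and 9160 none in the platform annotation. Each of 18193 genes was represented by its brightest probe set. Probe sets ending in _x_at were used only where no other existed (100 genes).

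All 15 arrays entered 1 fit with 5 group means (10 residual degrees of freedom) in limma 3.58.1 under R 4.3.3, and p-values were adjusted by Benjamini-Hochberg over all genes. The number of arrays limits the precision. The scripts were tested on simulated data.

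Genes were named by a rule, applied by absolute log2 difference: the 20 largest among called genes without overlap, the 20 largest among those called whichever array was left out (there were 3), up to 5 called and 3 not called members of each list, up to 10 called between coffees, and the genes of transcripts or proteins the study measured. Clone and predicted gene symbols were left out. The text names part of them. Fdft1, Idi1, Stard4, Srebf2, Ndufs1 and Ndufab1 lie outside the rule and were chosen after their values were seen. The comparison and lists were chosen with earlier results of these data known. Alternatives were averaged or all probe sets, a level filter, cyclic loess, an offset of 32, the compared groups alone, a replicate block, a trended and robust eBayes step, a looser adjusted p of 0.10, a minimum of 1.5-fold, the 3′ minus 5′ covariate and leaving out each array. Promoter stretches come from RefSeq (GRCm38.p6), where 18 of the 22 cholesterol genes matched by symbol.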

Additional observations from a re-analysis of the deposited data

Results flagged for a closer look

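A difference between HFDC livers and those of another coffee group that passed limma's test was reason for a closer look, up to 10 genes per comparison. Against HFCC, where 17 genes were called, HFDC livers were lower in Fdps (−2.34), Mvd (−2.13), Nsdhl (−1.57), Atp6v0d2 (−1.45), Rdh11 (−1.41), Ildr2 (−1.11), Kctd7 (−0.84) and Tmem41b (−0.72), and higher in Plscr1 (1.00) and Pnpla7 (0.91), all log2 differences. Rdh11, a retinol dehydrogenase, had 7.16, 6.45 and 6.22 in HFDC against 8.22, 7.76 and 8.07 in HFCC livers. Only Kctd7 and Pnpla7 were called whichever of the 15 arrays was left out. Against HF, only Atp6v0d2, Ildr2, Plscr1 and Pnpla7 of these genes were called, and Kctd7 and Tmem41b differed by 0.00 and 0.08. When HFDC and HFCC arrays were fitted alone limma called 0 genes, with 1889 at an unadjusted p under 0.05.

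Against HFGC, HFDC livers were lower in Tsc22d3 (−1.03), Per1 (−0.90) and Kctd7 (−0.69), and higher in Dyrk2 (0.63), Pnpla7 (0.62), Cmtm6 (0.57) and Lin9 (0.47). Cmtm6, a membrane protein that stabilises PD-L1, had 9.80, 9.70 and 9.80 in HFDC against 9.26, 9.18 and 9.15 in HFGC livers. None of these 7 was called in every fit that left out an array. The HFDC and HFGC arrays fitted alone gave 0 calls in limma, with 1479 at an unadjusted p under 0.05.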

How the results depend on the processing

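For HFDC against HF the count of 913 was 558 with averaged probe sets, 498 with cyclic loess, 0 with the 3′ minus 5′ covariate, 5 with the compared groups alone, 2003 at an adjusted p under 0.10 and 101 at 1.5-fold or more. It ranged between 3 and 2111 with an array left out. HFDC against HFCC (17 calls) gave 1 with averaged probe sets, 2 with all probe sets, 2 with the offset, 2 with the replicate block, 0 alone and 60 at an adjusted p under 0.10, and 2 to 40 with an array left out. HFDC against HFGC (7 calls) gave 3 with averaged probe sets, 1 with the covariate, and 0 with all probe sets, the offset, the block or alone (2582, 1307, 1271 and 1479 at an unadjusted p under 0.05), and 0 to 22 with an array left out. The cause was not tested. Same-numbered HFDC and HF arrays deviated together only weakly (r = 0.06, 0.09 and 0.10). Differently numbered arrays were not set beside them, so these values cannot tell whether the numbers pair the mice. The replicate block gave 679 calls for HFDC against HF, 623 of them among the 913. Of 1606 alternatives run for the 70 called named genes, 982 kept the call, 624 lost it and 0 changed the sign; of the 123 named genes not called, 19 changed sign under at least 1 alternative. The 3 arrays a group, dim probe sets such as those used for Themis, Kctd7 and Arg2, and RNA quality that differs with the groups limit what can be resolved.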
